A study of Homo sapiens with 36 samples.

Results

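The genes described here are 9 cytokines: IL6, IL11 and LIF of the interleukin-6 family, IL1A, IL1B and IL18 of the interleukin-1 family, IL23A, IL32 and TNF. They were chosen by name, with earlier results of these data known. All probe sets annotated to 1 of them alone were taken. This gave 113 of the 352859 probe sets on the array and 9 of 22260 genes. TNF had 46 of these probe sets, IL1B 14, IL6 and IL32 11 each, IL18 8, IL1A 7, IL23A 6, and IL11 and LIF 5 each. A further 17 probe sets that name IL23A together with another gene were left out.

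The samples are 36 arrays in 12 groups of 3. DU145 derives from a human prostate carcinoma, and CCRF-CEM from a T-cell acute lymphoblastic leukaemia. Each was present as the SLFN11-proficient parent and as SLFN11-knockout cells, and the series asks how the loss of SLFN11, a Schlafen-family protein recruited to stressed replication forks, changes the transcriptional answer to replication stress. In each of these 4 cell populations 1 group was labelled control, 1 received camptothecin (CPT) at 250 nM for 6 h and 1 received it for 12 h. CPT traps topoisomerase I on DNA. All cells grew in RPMI1640 with 10% FBS. The control label gives no treatment, although DMSO is named in the treatment protocol, and the hour at which controls were harvested is not given. Neither the position of the SLFN11 edit nor whether the knockout cells are a clone or a pool is given, so the gene's loss and the derivation of those cells cannot be told apart. Nothing in the labels says that the 3 arrays of a group came from separate cultures, so p-values measure the spread between arrays, which may be technical.

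Cytokines of the interleukin-6 family signal through receptors that share the gp130 chain, encoded by IL6ST, to JAK kinases and STAT3. IL1B and IL18 are made as precursors that caspase-1 cleaves, IL23A encodes the p19 chain that pairs with the p40 chain of IL12B, TNF is shed from the cell surface by ADAM17, and IL32 is known in human cells as an inducer of other inflammatory cytokines. Several of these genes are switched on quickly through NF-kB and AP-1, their mRNAs are short-lived through AU-rich elements bound by ZFP36-family proteins, and NF-kB induces its own inhibitors NFKBIA and TNFAIP3. After DNA damage, IL6 and other members belong to the secreted products of stressed and senescent cells.

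All values are the authors' log2 probe-set signals, and a change of 1 is a doubling. Levels are compared only within a probe set, since probe sets differ in brightness. A gene is given by its brightest probe set (the highest mean over the 36 arrays), by each of its probe sets, and by the mean over its probe sets. Differences were tested with limma and called at a Benjamini-Hochberg adjusted p below 0.05 over all genes or all probe sets. The genotype difference is the parent cells' CPT change less that of the knockout cells. A probe set was taken as above background where its group mean exceeded the 95th percentile of olfactory receptor genes in that group, which lay between 4.95 and 5.33 for brightest probe sets and between 4.43 and 4.84 for single ones.

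Array medians lay between 4.78 and 4.86, and arrays of a group correlated at 0.979 to 0.988. SLFN11 probe set 16843409 was lower in untreated knockout than in parent cells. The log2 difference was -2.85 in DU145, at an adjusted p of 0.00649, and -1.07 in CCRF-CEM, at 0.00233. Of its 11 probe sets, 3 passed as lower and 2 as higher in DU145, and 1 passed as lower in CCRF-CEM, so the transcript checks the label only in part. Epithelial markers were above background for 8 of 8 genes in each DU145 group (median 10.01 to 10.45), with 5 to 7 of 8 T-lineage markers just above it (median 5.96 to 6.25). In CCRF-CEM 8 of 8 T-lineage markers were above background in each group (median 10.79 to 11.26), and so were 6 or 7 of 8 epithelial markers (median 6.42 to 6.70). Myeloid markers, which bear on cytokines that monocytes make, had a median of 5.001 to 5.58 in all 12 groups. In each group 3 to 6 of 8 were above background, and the highest stood at 10.08 to 10.82 in DU145 and 12.16 to 12.64 in CCRF-CEM. B-lineage markers were above background for 4 of 4 measured genes in each group (median 7.11 to 7.85). The part of these markers in the results was not tested.

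The starts of the genes whose signal moved are shown because AP-1, CRE, C/EBP and kappa B motifs are the elements through which such genes are classically switched on. RefSeq promoters on GRCh38.p14, of 250 bases before to 50 after the start, were matched by symbol for 7 of the 9 genes; LIF and IL18 are named only. Each runs 5′ to 3′ on the gene's own strand, in lower case with motif matches in capitals. IL11 and IL23A each hold an AP-1 motif, IL6, IL23A and IL32 hold kappa B motifs, and TNF is shown as the other gene that rose in CCRF-CEM. The promoters of IL1A and IL1B, both below background here, are not shown, and they hold motifs too, 2 AP-1 and 2 C/EBP in IL1A and 3 C/EBP in IL1B.
IL11, chr19:55370414-55370713, minus strand: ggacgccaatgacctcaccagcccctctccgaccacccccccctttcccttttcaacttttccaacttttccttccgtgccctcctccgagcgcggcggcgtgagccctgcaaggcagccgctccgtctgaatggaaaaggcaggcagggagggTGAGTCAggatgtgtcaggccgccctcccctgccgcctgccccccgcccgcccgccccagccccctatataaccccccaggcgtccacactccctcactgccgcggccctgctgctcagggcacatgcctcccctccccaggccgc
IL6, chr7:22726950-22727249, plus strand: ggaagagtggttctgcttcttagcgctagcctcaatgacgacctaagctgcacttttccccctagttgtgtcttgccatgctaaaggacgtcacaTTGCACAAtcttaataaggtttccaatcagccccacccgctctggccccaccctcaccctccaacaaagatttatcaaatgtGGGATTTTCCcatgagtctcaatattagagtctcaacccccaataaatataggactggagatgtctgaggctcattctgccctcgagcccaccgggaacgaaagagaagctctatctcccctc
IL32, chr16:3065153-3065452, plus strand: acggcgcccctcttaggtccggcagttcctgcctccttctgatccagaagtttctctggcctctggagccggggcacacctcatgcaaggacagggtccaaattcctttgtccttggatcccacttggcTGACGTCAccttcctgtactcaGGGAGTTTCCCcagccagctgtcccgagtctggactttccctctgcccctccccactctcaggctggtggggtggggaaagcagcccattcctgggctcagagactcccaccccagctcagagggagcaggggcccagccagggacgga
IL23A, chr12:56338634-56338933, plus strand: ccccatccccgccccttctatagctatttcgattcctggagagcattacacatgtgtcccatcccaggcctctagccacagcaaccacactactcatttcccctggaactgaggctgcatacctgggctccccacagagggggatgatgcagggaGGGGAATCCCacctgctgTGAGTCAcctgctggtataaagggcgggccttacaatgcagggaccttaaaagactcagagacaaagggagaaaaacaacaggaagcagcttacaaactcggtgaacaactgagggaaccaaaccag
TNF, chr6:31575315-31575614, plus strand: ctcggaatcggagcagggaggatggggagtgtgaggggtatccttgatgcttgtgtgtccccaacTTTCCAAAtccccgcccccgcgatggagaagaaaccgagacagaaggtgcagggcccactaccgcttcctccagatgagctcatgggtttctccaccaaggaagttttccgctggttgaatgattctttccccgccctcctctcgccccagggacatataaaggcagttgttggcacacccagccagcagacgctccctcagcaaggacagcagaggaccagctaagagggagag
Both strands were searched. AP-1 was TGANTCA and stood at -96 to -90 in IL11 and at -77 to -71 in IL23A, counted from the start of the gene. The kappa B consensus matched at -95 to -86 in IL23A, at -73 to -64 in IL6, and at -99 to -90 and -98 to -89 in IL32, where the 2 matches overlap. CRE, TGACGTCA, matched in IL32 at -121 to -114. C/EBP, TTNNGNAA, matched at -155 to -148 in IL6 and at -185 to -178 in TNF. Among 35116 promoters of the same length, 7.71% held AP-1, 1.85% CRE, 11.3% kappa B and 36.8% C/EBP, so the last is common. No match of 1 motif overlapped that of another in these 5 promoters, and a match is a run of letters, not a measured site.

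By their brightest probe sets the members fell into 3 patterns of level. IL6, IL11, IL23A, IL32 and LIF were above background in both lines, although IL23A was not in untreated DU145 knockout cells or in those cells after 6 h. IL18 was above background in every DU145 group and in none of CCRF-CEM, and TNF in every CCRF-CEM group and in 2 of 6 DU145 groups. Single probe sets put these borders less sharply. In each DU145 group 3 of 6 IL23A and 8 to 22 of 46 TNF probe sets were above background, and IL18 probe set 16744418 was above it in 5 of 6 CCRF-CEM groups (means 4.44 to 5.25). For LIF, 1 to 3 of 5 probe sets were above background in CCRF-CEM groups. IL1A and IL1B, the prototype interleukin-1 genes, were above background in none of the 12 groups by any of their 7 and 14 probe sets. By brightest probe sets, 7 members were above background in at least 1 DU145 group and 6 in at least 1 CCRF-CEM group, and the plot of levels in every array shows these patterns.

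**Figure D1:**
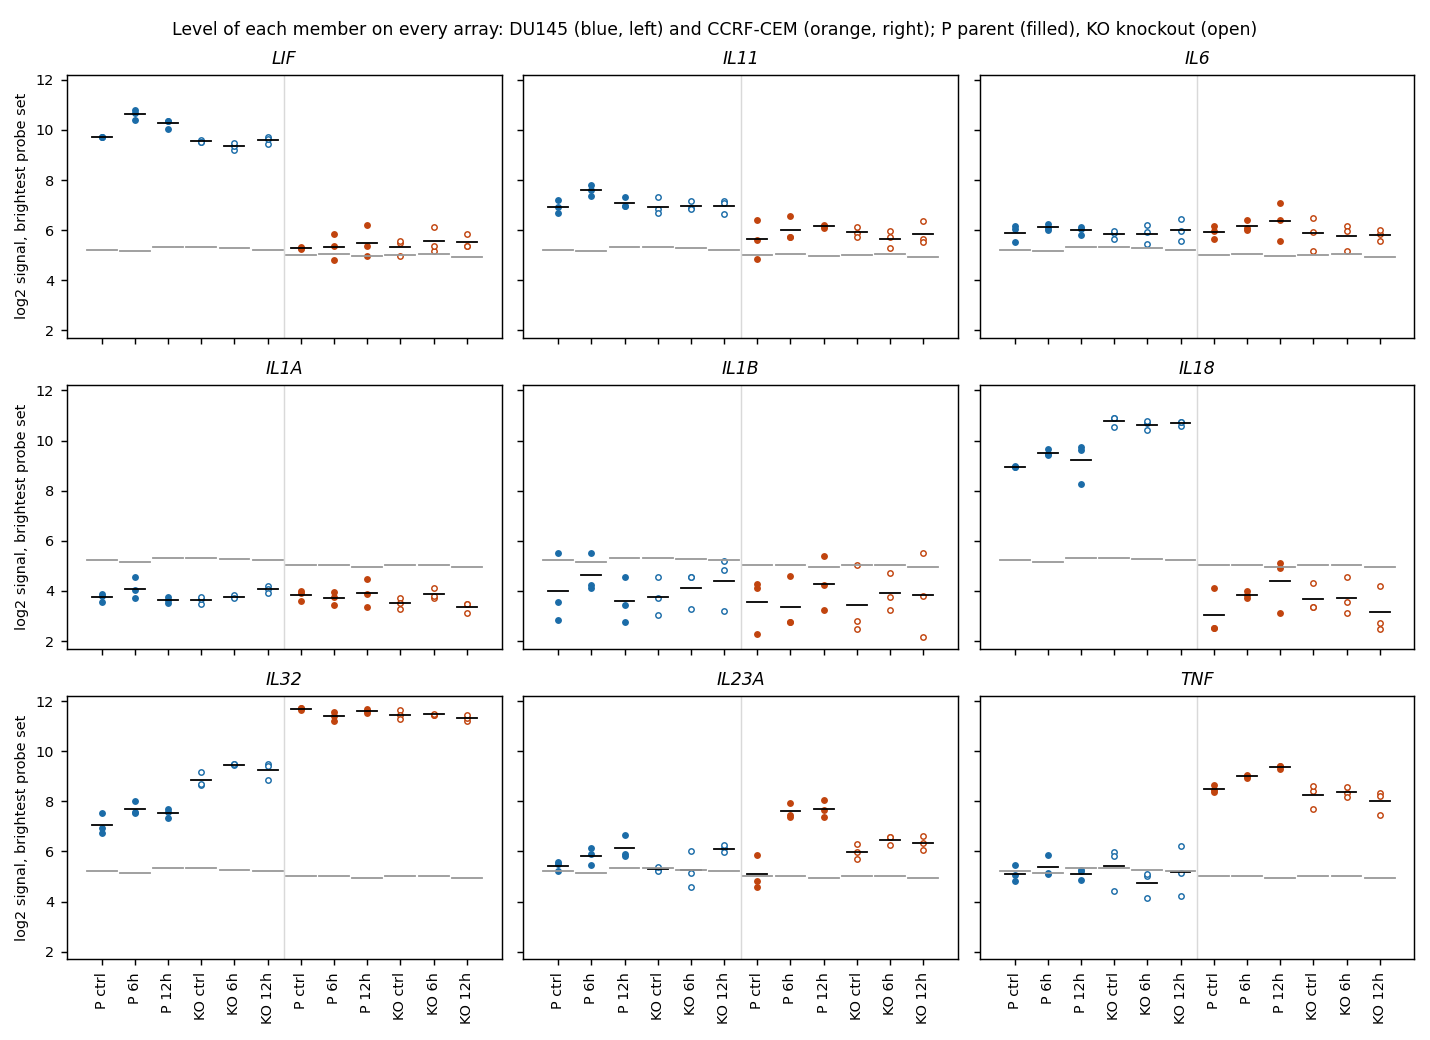
Log2 signal of the brightest probe set of each of the 9 genes (vertical axis) in each of 36 arrays, by group (horizontal axis), with DU145 in blue, CCRF-CEM in orange, parent arrays filled, knockout arrays open, group means as black bars and the background level in grey. LIF and IL18 stand high in DU145, IL32 and TNF in CCRF-CEM. The group means of IL1A and IL1B stay under the grey line, while single IL1B arrays lie above it, up to 5.53.

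Between the untreated parent lines, 5 of 9 members passed, against 37.1% of all genes. The log2 difference, DU145 minus CCRF-CEM, was 4.44 for LIF, 1.31 for IL11 and -4.63 for IL32, with adjusted p from 3.41e-18 to 0.000486. IL18 passed as higher and TNF as lower in DU145, and the size of neither is given because the dimmer line lay below background, IL18 at 3.05 in CCRF-CEM and TNF at 5.11 in DU145. LIF's size is uncertain too, since 2 of its 5 probe sets were above background in untreated CCRF-CEM parent cells. Its brightest stood there at 5.28 against a background of 5.02. These differences are those of 2 lines of different tissue and not of a treatment. IL6, IL23A, IL1A and IL1B did not pass by their brightest probe sets.

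LIF, which maintains stem cells in mouse and acts on many tissues through LIFR and gp130, rose with CPT in DU145 parent cells, and its change in knockout cells did not pass by the brightest probe set. Its brightest probe set read 9.73, 9.71 and 9.72 in the 3 untreated parent arrays, 10.68, 10.41 and 10.81 after 6 h, and 10.36, 10.37 and 10.05 after 12 h. The knockout arrays read 9.59, 9.51 and 9.53 untreated, 9.21, 9.35 and 9.46 after 6 h, and 9.72, 9.43 and 9.64 after 12 h. Every treated parent array lay above every other DU145 array, and the arrays at 6 h lay above those at 12 h. The rise in parent cells was 0.91 ± 0.125 (log2 change ± SE, n = 3 against 3) at 6 h, with an adjusted p of 0.000263, and 0.54 ± 0.125 at 12 h (adjusted p = 0.0153). LIF was the single member of 9 that passed at 6 h, against 10.1% of all genes, and also at 12 h, against 7.69%, so the number of members called was near the background of each contrast. At 6 h the members' median change was 0.56 beside 0.04 over all genes.

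In knockout cells LIF changed by -0.21 at 6 h and 0.05 at 12 h, neither of which passed. The genotype difference at 6 h was 1.12 ± 0.177 (adjusted p = 0.00504), 1 of 9 members against 1.11% of all genes. At 12 h it was 0.49 (adjusted p = 0.189), and 0 of 9 members passed limma's test there against 1.13%, with 2 members at an unadjusted p below 0.05. All 5 LIF probe sets passed at 6 h in parent cells, with changes of 0.79 to 1.14 and adjusted p of 0.00279 to 0.0235, against 1.44% of all probe sets called higher. Of the same 5, 0 passed at 12 h and 0 for the genotype difference, which ran from 0.96 to 1.64 at 6 h, when p was adjusted over all probe sets. In CCRF-CEM, LIF group means stayed between 5.28 and 5.56 and no change with CPT passed by the brightest probe set.

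IL11, a gp130 cytokine tied to fibrosis and to epithelial repair in mouse and human, rose at 6 h in DU145 parent cells by 1 of its 5 probe sets. Probe set 16875756 read 7.20, 7.25 and 7.20 in untreated parent arrays, 8.38, 8.60 and 8.33 after 6 h, and 7.91, 7.72 and 7.24 after 12 h. In knockout arrays it read 7.78, 7.66 and 7.91 untreated, 7.29, 7.15 and 7.48 after 6 h, and 7.55, 7.39 and 7.50 after 12 h. The 3 parent arrays at 6 h lay above all other DU145 arrays, while in knockout cells the treated arrays lay below the untreated ones. This probe set rose by 1.22 ± 0.168 at 6 h in parent cells (adjusted p = 0.000993), and its genotype difference was 1.70 ± 0.238 (adjusted p = 0.00831), against 0.113% of probe sets called higher. Part of that difference is an untreated gap, knockout above parent by 0.57, which did not pass (adjusted p = 0.101). The other IL11 probe sets did not pass for the genotype difference at 6 h, at 0.62 to 1.95 (adjusted p = 0.323 to 0.782).

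The brightest IL11 probe set read 6.93, 6.67 and 7.20 in untreated parent arrays and 7.35, 7.81 and 7.61 after 6 h. Its change of 0.66 ± 0.2 did not pass (adjusted p = 0.0511), although the arrays did not overlap. All 5 IL11 probe sets had every parent array at 6 h above every untreated parent array, with changes of 0.66 to 1.22 and a median of 0.97. With the mean over probe sets IL11 rose from 5.97 to 6.96 at 6 h, by 0.99 ± 0.129 (adjusted p = 2.48e-05), and stood at 6.32 at 12 h, a change of 0.35 from control that did not pass (adjusted p = 0.091). The knockout means were 6.24, 5.98 and 6.00.

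**Figure D2:**
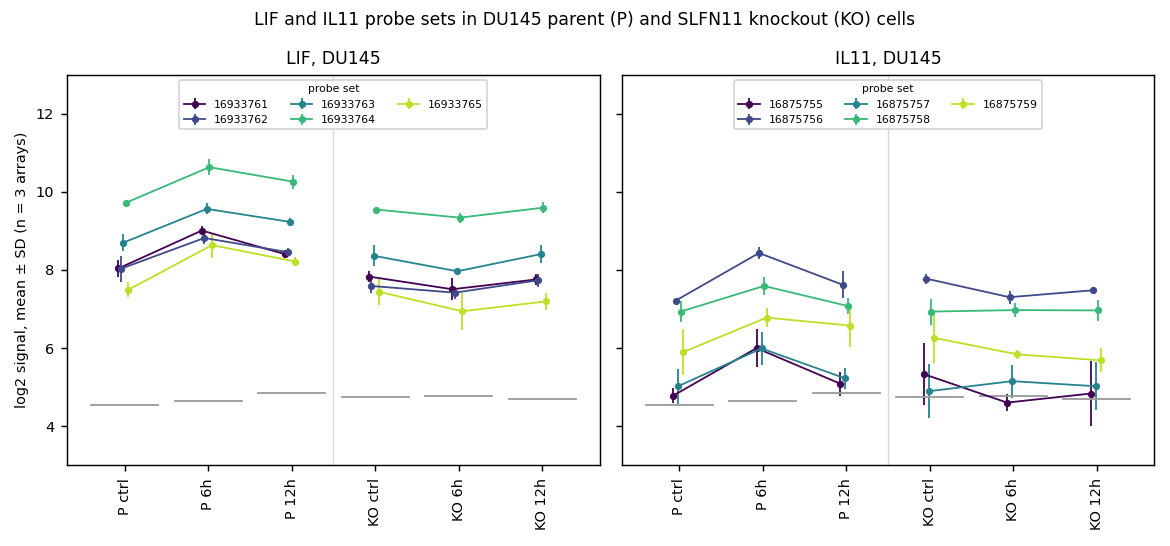
Mean log2 signal ± SD (vertical axis, n = 3 arrays) of each probe set of LIF and IL11 in the 6 DU145 groups (horizontal axis), with the background level in grey. The probe sets of both genes peak in parent cells at 6 h, as for IL11 probe set 16875756 with arrays of 8.38, 8.60 and 8.33, while the 5 LIF probe sets are lowest at 6 h in knockout cells.

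Under the mean over probe sets, which lowers array noise and also calls more genes, IL11, IL32 and LIF passed at 6 h in DU145 parent cells, 3 of 9 members against 15.4% of genes. IL11 and LIF passed for the genotype difference at 6 h, at 1.256 ± 0.182 (adjusted p = 0.000577) and 1.255 ± 0.144 (adjusted p = 3.79e-05), 2 of 9 against 2.25%. At 12 h IL32 and LIF passed in parent cells, 2 of 9 against 12.2%. From 6 h to 12 h in parent cells IL11 fell by 0.64 (adjusted p = 0.0172), 1 of 9 against 1.13%, and LIF changed by -0.42 without passing (adjusted p = 0.0541). By brightest probe sets 0 of 9 members passed limma's test between 6 h and 12 h, against 0.454% of genes, with 3 at an unadjusted p below 0.05. LIF fell by 0.32 at 6 h in knockout cells under this mean (adjusted p = 0.0444).

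IL6, the founding member of its family, differed between untreated DU145 parent and knockout cells. Probe set 17044185 read 5.24, 5.69 and 5.95 in parent arrays and 8.15, 7.93 and 8.02 in knockout arrays. Probe set 17044187 read 2.91, 2.22 and 2.20 in parent and 4.04, 4.15 and 5.11 in knockout arrays. In neither did the genotypes overlap, although both genotypes' means of the second, 2.44 and 4.43, lay below background, which leaves that difference without a firm size. The first was higher in knockout cells by 2.41 ± 0.286, or 5.3-fold (adjusted p = 0.000496), and the second by 1.99 ± 0.331 (adjusted p = 0.0064), against 1.21% of probe sets called higher.

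Of the 11 IL6 probe sets, 8 had every knockout array above every parent array, and the log2 differences over all 11 ran from -0.67 to 2.41 with a median of 1.497. The brightest, 17044180, was among the other 3 and had group means of 5.76 to 6.35 in all 12 groups, so the choice of 1 probe set decides whether the gene is called. With the mean over probe sets IL6 stood at 4.60 in parent and 5.64 in knockout cells, a difference of 1.05 ± 0.119 or 2.07-fold (adjusted p = 9.77e-06). In untreated parent cells 6 of 11 IL6 probe sets were above background, against 9 in untreated knockout cells and 10 in knockout cells after 12 h.

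No CPT change of IL6 from control passed in DU145. In parent cells its mean over probe sets was 4.60 at 6 h and 4.77 at 12 h, and in knockout cells it was 5.47 at 6 h and 5.96 at 12 h. The rise between these times of 0.50 in knockout cells passed (adjusted p = 0.042), 1 of 9 members against 1.46% of genes. In CCRF-CEM only 1 to 4 of 11 IL6 probe sets were above background. There the mean over probe sets fell in parent cells at 12 h by 0.49 ± 0.102 from control (adjusted p = 0.00187) and by 0.41 from 6 h (adjusted p = 0.0283), 1 of 9 members against 4.86% for the latter, from a level of 4.02 that lies under the background of single probe sets.

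IL18, an interferon-gamma-inducing cytokine that epithelial cells store as a precursor, was higher in untreated DU145 knockout cells than in parent cells. Its brightest probe set read 8.95, 8.94 and 8.99 in parent arrays and 10.89, 10.89 and 10.54 in knockout arrays. The knockout arrays stayed between 10.42 and 10.77 at 6 h and between 10.59 and 10.75 at 12 h, above every parent array at any time. The untreated difference was 1.81 ± 0.28, or 3.52-fold (adjusted p = 0.00112). It was positive for 8 of 8 probe sets, of which 5 passed, with a range of 0.51 to 2.34 and a median of 1.26.

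After CPT the IL18 parent arrays read 9.67, 9.42 and 9.46 at 6 h and 9.76, 8.25 and 9.63 at 12 h. The second array at 12 h lay below all untreated ones, and neither change passed by the brightest probe set. Probe set 16744420 did rise at 6 h in parent cells, from 6.47, 6.26 and 6.26 to 7.16, 7.49 and 7.44, by 1.04 (adjusted p = 0.0118), and it read 6.81, 6.42 and 6.34 at 12 h. Of all probe sets 1.44% were called higher at 6 h. The means of 16744416 and 16744422 went down, from 6.77 to 5.97 and from 6.03 to 5.615, and those of the other IL18 probe sets went up. Probe set 16744419 fell by 0.98 at 6 h in knockout cells (adjusted p = 0.0319), 1 of 8 against 1.74% of probe sets called lower. In CCRF-CEM 0 or 1 of 8 IL18 probe sets were above background.

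IL32 was higher in untreated DU145 knockout cells as well. Its brightest probe set read 6.73, 6.92 and 7.53 in parent arrays and 8.65, 8.71 and 9.17 in knockout arrays, without overlap. The difference was 1.79 ± 0.221, or 3.45-fold (adjusted p = 0.000204), and 3 of 11 probe sets passed, with 8 positive and a median of 0.79. IL18 and IL32 were the 2 of 9 members that passed by brightest probe sets, against 11.4% of all genes. By the mean over probe sets IL6, IL18 and IL32 passed, 3 of 9 against 12.3%, with differences of 1.05, 1.35 and 0.71. In CCRF-CEM 0 of 9 members passed limma's test between the untreated genotypes, against 1.51% of genes, with 1 at an unadjusted p below 0.05.

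**Figure D3:**
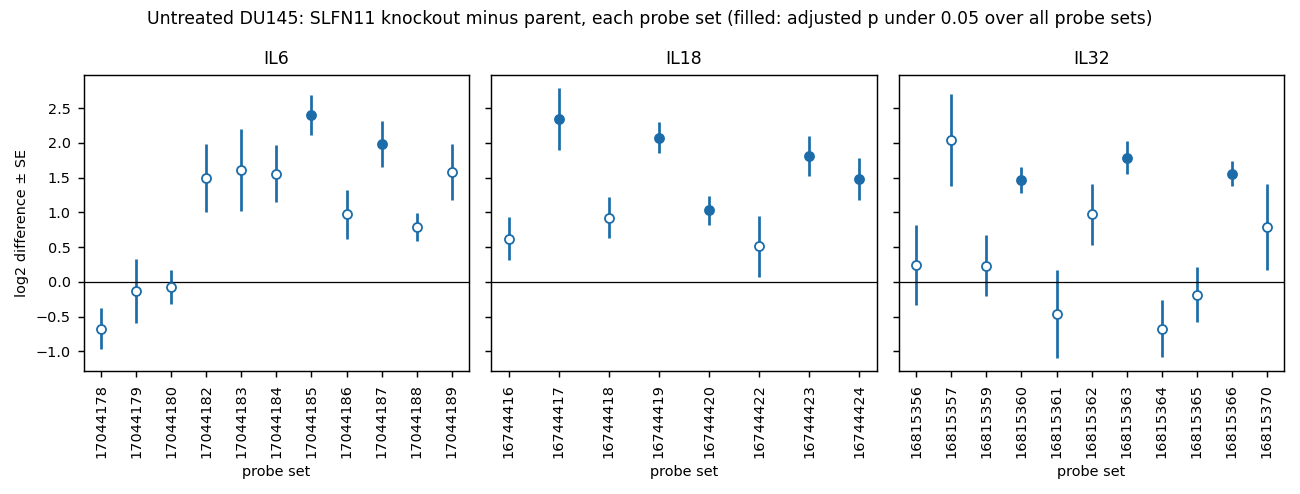
Log2 difference ± SE (vertical axis), knockout minus parent in untreated DU145 cells (n = 3 against 3), for each probe set (horizontal axis) of IL6, IL18 and IL32, with filled points for probe sets that passed. All 8 IL18 probe sets lie above 0, while 8 of 11 do for IL6 and for IL32.

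With CPT, IL32 moved upward in both DU145 genotypes. Probe set 16815360 read 7.11, 6.64 and 6.38 in untreated parent arrays and 7.54, 7.73 and 7.33 after 6 h, and in knockout arrays it went from 8.33, 8.22 and 7.98 to 9.18, 8.86 and 9. It rose at 6 h by 0.82 ± 0.182 in parent cells (adjusted p = 0.0208) and by 0.84 ± 0.182 in knockout cells (adjusted p = 0.0249), the latter against 0.907% of probe sets called higher. With the mean over probe sets the change was 0.73 ± 0.111 at 6 h and 0.48 at 12 h in parent cells, and 0.46 at 6 h and 0.41 at 12 h in knockout cells, and all 4 passed (adjusted p = 0.000124 to 0.016). Only 3 to 5 of 11 IL32 probe sets were above background in DU145 groups, and that mean takes in the others, so these sizes are uncertain. IL32 and LIF were the 2 of 9 members that passed in knockout cells at 6 h by that mean, against 13.7% of genes, and IL32 was the 1 of 9 at 12 h, against 15.7%. By the brightest probe set, where untreated parent arrays spread from 6.73 to 7.53, IL32 did not pass in either genotype.

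By brightest probe sets, 0 of 9 members passed limma's test in DU145 knockout cells in any CPT contrast. That compares with 8.72% of genes at 6 h, 10% at 12 h and 0.386% from 6 h to 12 h, with 1, 2 and 1 members at an unadjusted p below 0.05. In CCRF-CEM, IL32 group means lay between 11.33 and 11.69, and the parent change at 6 h was -0.29 (adjusted p = 0.127).

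IL23A, which encodes the p19 chain of interleukin-23, gave the largest CPT change among the brightest probe sets of the 9 genes, in CCRF-CEM parent cells. Its brightest probe set, 16752649, read 5.87, 4.60 and 4.82 in untreated parent arrays, 7.39, 7.94 and 7.46 after 6 h, and 7.65, 7.37 and 8.07 after 12 h. In knockout arrays it read 5.98, 6.28 and 5.68 untreated, 6.26, 6.57 and 6.58 after 6 h, and 6.05, 6.61 and 6.35 after 12 h. The treated parent arrays lay above all other CCRF-CEM arrays, and their 2 times overlapped. The rise was 2.5 ± 0.292 at 6 h (adjusted p = 5.04e-05) and 2.60 ± 0.292 at 12 h (adjusted p = 2.34e-05). IL23A was the 1 of 9 members that passed at 6 h, against 12.4% of genes, and with TNF made 2 of 9 at 12 h, against 16.8%. The choice of brightest probe set took in the treated arrays. In untreated CCRF-CEM parent cells probe set 16752646 was brighter, at 5.695 against 5.097. It rose by 1.20 at 6 h and 1.105 at 12 h.

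Beside these changes, 4 of 8 T-lineage markers passed as lower in CCRF-CEM parent cells at 6 h and 4 of 8 at 12 h (median log2 change -0.31 and -0.39), and 1 and 3 of 8 in knockout cells (median -0.18 and -0.23). Their part in the IL23A and TNF results was not tested.

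The genotype difference of IL23A was 2.01 ± 0.412 at 6 h (adjusted p = 0.02), 1 of 9 members against 2.23% of genes, and 2.25 ± 0.412 at 12 h (adjusted p = 0.00414). Part of both is an untreated gap, knockout above parent by 0.88 in this probe set, which did not pass (adjusted p = 0.371 over all probe sets). Across the 6 probe sets the 6 h difference ran from 0.80 to 2.01. Over all probe sets the 6 h genotype difference passed for 0 of 6 IL23A probe sets (lowest adjusted p = 0.0803), with 5 of 6 at an unadjusted p below 0.05. That of 12 h passed for 1 of 6, and 6 of 6 were positive at each time. Leaving out any 1 of 4 arrays also ended the call at 6 h by the brightest probe set (adjusted p = 0.0509 to 0.0537). All 6 IL23A probe sets passed in parent cells at 6 h, by 1.17 to 2.5, and at 12 h, by 1.11 to 2.60, against 2.22% and 3.42% of probe sets called higher. Untreated, 3 of 6 were above background in either genotype, and 6 of 6 were after 6 h and after 12 h in both. In knockout cells the changes of 0.49 and 0.35 did not pass by the brightest probe set, but probe set 16752647 did at 12 h.

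Probe set 16752647 read 4.65, 4.06 and 4.07 in untreated parent arrays, 6.27, 6.19 and 6.19 after 6 h, and 6.71, 6.49 and 6.43 after 12 h. In knockout arrays it went from 4.01, 3.89 and 3.93 untreated to 5.17, 5.16 and 4.56 after 12 h, a rise of 1.02 ± 0.217 (adjusted p = 0.0356), against 0.57% of probe sets called higher. Its untreated means of 4.26 in parent and 3.94 in knockout cells lay below background, so the sizes of these rises are uncertain. With the mean over probe sets IL23A also rose in knockout cells at 12 h, by 0.55 (adjusted p = 0.0218), 1 of 9 members against 9.91%. That mean rose by 1.80 ± 0.146 at 6 h and 1.83 at 12 h in parent cells. The partner chain gene IL12B, named here although no rule chose it, had CCRF-CEM parent levels of 5.13 ± 0.495 untreated and 5.58 ± 0.367 after 12 h (SD), near a background of 5.02 and 4.96.

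TNF, the founding ligand of its receptor family, was above background by all 46 probe sets in CCRF-CEM. The 46 hold only 10 distinct rows of values, since 6 rows occur 7 times each, and the counts below are over the 10. In CCRF-CEM 17026268, 17026269, 17026270 and 17026271 ran close to 17006662, 17006663, 17006664 and 17006665. Their parent means at 12 h were 7.67, 9.74, 9.195 and 5.91 beside 7.69, 9.82, 9.37 and 6.03. The 10 rows are therefore not 10 separate measurements, and the counts take near-copies as separate. The brightest probe set read 8.64, 8.38 and 8.46 in untreated parent arrays, 9.01, 9.04 and 8.95 after 6 h, and 9.41, 9.41 and 9.30 after 12 h. Knockout arrays read 8.42, 7.71 and 8.62 untreated, 8.35, 8.58 and 8.17 after 6 h, and 8.33, 7.47 and 8.21 after 12 h. The 3 parent groups did not overlap with each other, and the knockout groups did.

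TNF rose at 12 h in parent cells by 0.88 ± 0.227 (adjusted p = 0.0145), while its change of 0.51 at 6 h did not pass (adjusted p = 0.184). The genotype difference at 12 h was 1.12 ± 0.321 (adjusted p = 0.0457), which with IL23A made 2 of 9 members against 7.91% of genes. In knockout cells the changes were 0.12 and -0.24. TNF's low second knockout arrays, 7.71 untreated and 7.47 after 12 h, widen that spread.

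Probe set 17006661 separated the groups further. It read 7.92, 7.75 and 7.61 in untreated parent arrays, 8.90, 8.92 and 8.60 after 6 h, and 9.45, 9.24 and 9.25 after 12 h, against 7.86, 7.45 and 7.90, then 8.01, 7.84 and 7.95, then 8.13, 7.24 and 7.72 in knockout arrays. It rose by 1.05 ± 0.202 at 6 h (adjusted p = 0.00823) and by 1.55 ± 0.202 at 12 h (adjusted p = 0.000314), with a genotype difference at 12 h of 1.59 ± 0.285 (adjusted p = 0.0152). Of the 10 distinct rows, 4 passed at 6 h and 8 at 12 h in parent cells, with 10 positive at both times and medians of 0.85 and 1.14. For the genotype difference at 12 h 5 of 10 passed, against 0.674% of probe sets called higher, with a median of 1.45. In knockout cells 0 of 10 passed at either time, with medians of -0.01 and -0.21.

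**Figure D4:**
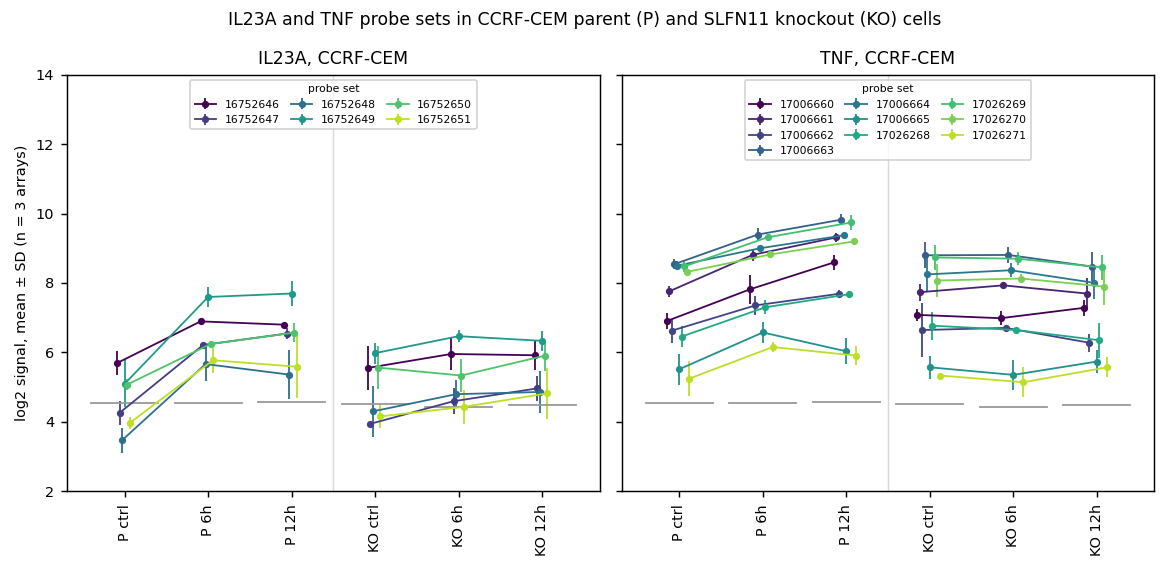
Mean log2 signal ± SD (vertical axis, n = 3 arrays) of each probe set of IL23A and each distinct value row of TNF in the 6 CCRF-CEM groups (horizontal axis), with the background level in grey. IL23A stands higher at 6 h and 12 h in parent cells, and 10 of 10 TNF rows are higher at 12 h than untreated in parent cells.

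By the mean over probe sets, in which TNF's copies weigh as often as they occur, IL23A and TNF passed at 6 h in CCRF-CEM parent cells, 2 of 9 members against 16.2% of genes. At 12 h both passed as higher and IL6 as lower, 3 of 9 against 20.5%. The genotype difference passed for IL23A and TNF at 6 h, at 1.46 ± 0.206 and 0.84 ± 0.216, 2 of 9 against 4.05%. At 12 h it passed for IL23A, TNF and IL11, at 1.28, 1.25 and 0.68, 3 of 9 against 8.73%. IL11 lay near background in CCRF-CEM, with 2 to 4 of 5 probe sets above it. Its 12 h change from control passed in neither genotype. None of its 5 probe sets passed singly in limma's test of the 12 h genotype difference (lowest adjusted p = 0.186). By brightest probe sets 0 of 9 members passed limma's test between 6 h and 12 h in parent cells, against 5.78% of genes, and 0 did at an unadjusted p below 0.05. In knockout cells 0 of 9 passed at 6 h, 12 h and between them, against 6.44%, 8.21% and 0.517%, with 0, 0 and 1 at an unadjusted p below 0.05.

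In DU145, group means of the brightest TNF probe set lay between 4.76 and 5.40, across the background, while those of probe set 17006660 lay between 5.63 and 6.63, above it in all 6 groups. Of its 10 distinct rows 1 passed there, 17026269 at 12 h in parent cells, which rose by 1.44 (adjusted p = 0.0432) against 0.878% of probe sets called higher, from 2.17, 1.68 and 2.27 to 3.87, 2.54 and 4.04, all below background. IL23A in DU145 had group means of 5.24 to 6.13, and its parent change at 12 h of 0.70 did not pass (adjusted p = 0.183).

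IL1A and IL1B showed no level above background to which a change could be referred. IL1A group means of the brightest probe set lay between 3.36 and 4.10, and those of IL1B between 3.37 and 4.63 with SDs of up to 1.68. All neighbours in the order of their 12 group means overlapped. Of their 21 probe sets, 2 IL1B probe sets passed in CCRF-CEM, each in 1 contrast and below background throughout. Probe set 16902001 fell by 0.90 at 12 h in parent cells (adjusted p = 0.0497), against 3.28% of probe sets called lower, and 16901997 rose by 1.13 at 6 h in knockout cells (adjusted p = 0.0121), against 0.477% called higher.

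**Figure D5:**
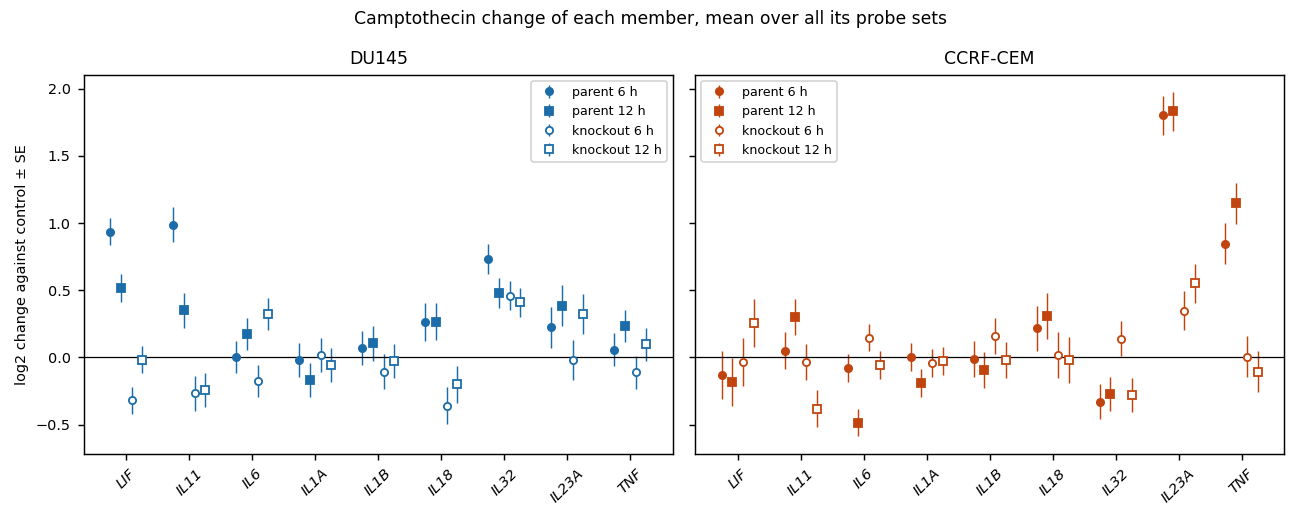
Log2 change with CPT ± SE (vertical axis) of the mean over probe sets of each of the 9 genes (horizontal axis), at 6 h and 12 h in parent and knockout cells (n = 3 against 3), with DU145 and CCRF-CEM in separate panels. LIF and IL11 lie near 0.94 and 0.99 at 6 h in DU145 parent cells, and IL23A and TNF at 1.83 and 1.15 at 12 h in CCRF-CEM parent cells.

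The CPT change itself was compared between the lines, and the plot of changes shows both side by side. By brightest probe sets the parent change, DU145 minus CCRF-CEM, was -2.09 ± 0.429 for IL23A (adjusted p = 0.00394) and 0.94 ± 0.251 for IL32 (adjusted p = 0.0272) at 6 h, 2 of 9 members against 5.28% of genes. At 12 h it was -1.90 ± 0.429 for IL23A (adjusted p = 0.00377), 1 of 9 against 10.5%. The genotype difference itself differed between lines for IL23A at 12 h, by -2.37 ± 0.607 (adjusted p = 0.0201), 1 of 9 against 4.78%. At 6 h 0 of 9 passed limma's test of that kind, against 0.53%, with 2 at an unadjusted p below 0.05.

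By the mean over probe sets 5 members passed for the parent change at 6 h, against 9.48% of genes. LIF (1.07 ± 0.211), IL11 (0.94 ± 0.191) and IL32 changed more in DU145, and IL23A and TNF (-0.79 ± 0.199) more in CCRF-CEM. At 12 h 5 passed against 14.6%, with IL6 (0.66 ± 0.156) in place of IL11. IL6 fell by 0.49 in CCRF-CEM parent cells, from a level under background, and its DU145 parent change did not pass. The line difference of the genotype difference passed for LIF (1.35 ± 0.299), IL11 (1.17 ± 0.27) and IL23A (-1.21 ± 0.308) at 6 h, 3 of 9 against 1.37%, and for LIF, IL23A and TNF at 12 h, 3 of 9 against 5.6%. Under this mean LIF in CCRF-CEM (3.91 to 4.36) and TNF in DU145 (4.08 to 4.57) lay below the background of single probe sets in every group. The sizes of their line differences are therefore uncertain.

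The genes around these cytokines are given by lists of their pathway. The lists were chosen with earlier results of these data known, so their counts describe these data and are no test of the lists. Of 12 feedback and response genes, 7 rose at 6 h and 5 at 12 h in DU145 parent cells, against 10.1% and 7.69% of all genes called in either direction, with medians of 0.59 and 0.42 beside 0.04 and 0.04. TNFAIP3, a deubiquitinase that restrains NF-kB, rose by 1.97 (adjusted p = 2.06e-08), NFKBIZ by 1.37, NFKBIA, the NF-kB inhibitor, by 1.195, and SOCS3, which blocks gp130 signalling, by 0.79 at 6 h. In DU145 knockout cells 1 rose and 1 fell at 6 h and 2 rose at 12 h, against 8.72% and 10%. In CCRF-CEM parent cells 6 rose at 6 h and 8 at 12 h, against 12.4% and 16.8%, with medians of 0.86 and 0.99 beside -0.02 and 0.00 over all genes. NFKBIA rose by 1.86 and BCL3 by 1.46 at 6 h. In CCRF-CEM knockout cells 3 rose and 1 fell at 6 h, with 1 in each direction at 12 h, against 6.44% and 8.21%.

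The genotype difference passed as higher for 3 of these 12 feedback genes at 6 h and 2 at 12 h in DU145, against 1.11% and 1.13% of all genes, with TNFAIP3 at 2.03 and 1.55. It passed as higher for 4 at each time in CCRF-CEM, against 2.23% and 7.91%, with TNFAIP3 at 1.29 and 1.08. Untreated DU145 knockout cells had 5 of the 12 higher than parent cells, against 11.4%, TNFAIP3 by 0.82 and SOCS3 by 0.83 among them. Of 10 genes of cytokine mRNA decay and stability, 3 rose at 6 h in DU145 parent cells, ZFP36, ZFP36L1 and ZFP36L2, and 4 rose and 1 fell in CCRF-CEM parent cells, against 10.1% and 12.4% of all genes. In knockout cells 1 rose and 2 fell at 6 h and 1 rose at 12 h in DU145. In CCRF-CEM knockout cells 1 was higher at 6 h, with 3 higher and 1 lower at 12 h, and the shares of all genes called were 8.72% and 10% in DU145 and 6.44% and 8.21% in CCRF-CEM. At 12 h in parent cells 1 rose in DU145, and 3 rose and 1 fell in CCRF-CEM, against 7.69% and 16.8%. ZFP36L1, which binds AU-rich elements and speeds mRNA decay, rose by 1.035 in DU145 and 1.86 in CCRF-CEM parent cells at 6 h, and in knockout cells it fell by 0.57 in DU145 and rose by 0.61 in CCRF-CEM.

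Of 18 receptors and antagonists, 0 passed by limma at 6 h in the parent cells of either line, against 10.1% and 12.4% of all genes. At 12 h 1 fell in DU145 and 3 rose in CCRF-CEM, among them IL6ST by 0.58, against 7.69% and 16.8%. In DU145 knockout cells 2 rose and 1 fell at 6 h, with 1 higher and 3 lower at 12 h, against 8.72% and 10%. TNFRSF1B rose there by 1.31 and 1.59. In CCRF-CEM knockout cells 1 rose at 6 h and 1 fell at 12 h, against 6.44% and 8.21%. TNFRSF1B, a receptor of TNF, was lower in untreated DU145 knockout cells by -1.64 (adjusted p = 0.000505), as was TNFRSF1A by -0.37. There 2 of 18 passed, against 11.4% of all genes. IL23R, the receptor chain specific to interleukin-23, had a genotype difference of 1.48 at 12 h in CCRF-CEM and fell by 1.10 in its knockout cells. Of the 18, 1 passed as higher for that genotype difference, against 7.91% of all genes. Of 12 genes of processing and release, 2 fell at 6 h in DU145 parent cells, CASP4 by 0.65 and ADAM10 by 0.62, against 10.1% of all genes. At 12 h 1 fell, ADAM10 by 0.64, against 7.69%. In DU145 knockout cells 1 fell at 6 h, with 1 in each direction at 12 h, against 8.72% and 10%. In CCRF-CEM parent cells 1 rose and 1 fell at each time, against 12.4% and 16.8%. In its knockout cells 0 passed by limma at 6 h, with 1 in each direction at 12 h, against 6.44% and 8.21%. ADAM17, which sheds TNF, rose by 0.71 at 6 h in CCRF-CEM parent cells, and ADAM10 fell by 0.42 there. CASP4, an inflammatory caspase, was lower in untreated CCRF-CEM knockout cells by -2.32 (adjusted p = 0.000549).

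Of 20 measured signal transducers, 0 passed at 6 h in DU145 parent cells and 2 rose and 1 fell in CCRF-CEM parent cells, against 10.1% and 12.4% of all genes. At 12 h in parent cells 1 rose and 1 fell in DU145, and 3 rose and 1 fell in CCRF-CEM, against 7.69% and 16.8%. In DU145 knockout cells 2 rose at 6 h and 3 at 12 h, MYD88 by 0.92 and 0.87 among them, against 8.72% and 10%. In CCRF-CEM knockout cells 1 fell at 6 h and 0 passed at 12 h, against 6.44% and 8.21%. Of 33 other cytokine genes, CLCF1, another gp130 cytokine, was the 1 that rose at 6 h in DU145 parent cells, by 0.95. IL16 was the 1 that passed in CCRF-CEM parent cells, where it fell by 0.93. Of all genes 10.1% and 12.4% passed at 6 h in the parent cells of these lines. IL24 was higher by 2.69 in untreated DU145 knockout cells (adjusted p = 6.76e-05), and CSF1 by 0.94, while CLCF1 was lower there by -1.09. There 2 of 33 passed as higher and 1 as lower, against 11.4% of all genes.

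The genes whose level ran most like a member's over the 18 arrays of its line were found by Pearson's r, as a description of arrays that share groups and normalization. For LIF in DU145 they were NFIL3 at 0.965, and KLF10 and IER2 at 0.958. For IL23A in CCRF-CEM they were FAM76B at 0.935, CASC3 at 0.932 and MXD1 at 0.926, and for TNF TMEM11 at 0.944, POLDIP2 at 0.936 and ZNF592 at 0.93.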

How the data were processed

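Total RNA, purified on columns with DNase, was hybridised after GeneChip WT Plus labelling, per the labels' protocols. The deposited log2 values come from RMA in Partek, versions not given, per the submitters' processing notes, and were used unchanged (0.97 to 13.92 over 36 arrays). No build of the genome is named: it is not given in the sources used. Of 352859 probe sets, 259224 carried 1 gene symbol. The number of arrays limits precision.

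Each line's 18 arrays were fitted in 6 groups with lmFit and eBayes of limma 3.58.1 (R 4.3.3, 12 residual degrees of freedom), and all 36 together for differences between lines. Benjamini-Hochberg adjustment ran over 22260 genes or 352859 probe sets. Tests were checked on simulated data. SE is limma's moderated standard error. Genes outside the 9 were named from pathway lists, the passing genes with the largest changes, and 3 per member by Pearson's r. The members and lists were chosen with earlier results of these data known. Same-numbered arrays shared little deviation (mean r -0.00411 in DU145 and 0.0123 in CCRF-CEM), so no pairing was used. In CCRF-CEM 13 of 18 arrays still correlated best with their own number, so a weak pairing there is left out of the tests. The alternatives tried were a joint fit of all arrays, the replicate block, other moderation, scaling, filters and probe-set summaries, and leaving out each array.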

Additional observations from a re-analysis of the deposited data

Results flagged for a closer look

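A test of the difference itself separated the CPT changes of the genotypes, as log2 change in parent minus knockout cells, for LIF in DU145 at 6 h (1.12), for IL23A in CCRF-CEM at 6 h (2.01) and 12 h (2.25), and for TNF in CCRF-CEM at 12 h (1.12). A test of the same kind separated the parent changes of the lines, DU145 minus CCRF-CEM, for IL23A at 6 h (-2.09) and 12 h (-1.90) and for IL32 at 6 h (0.94). The genotype difference of IL23A at 12 h differed between the lines by -2.37. TNF's genotype difference and IL32's line difference lie close to the threshold of 0.05 and lost the call in 13 and 8 of the other settings.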

How the results depend on the processing

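Of 331 settings tried on 20 member results, 296 kept direction and call, 35 lost the call and 0 reversed. The mean over probe sets called 3, 2 and 1 members in DU145 parent cells (6 h, 12 h, 12 h against 6 h), 2, 1 and 1 in knockout cells and 2 for the genotype difference at 6 h. In CCRF-CEM it called 2 in parent cells at 6 h, 1 from 6 h to 12 h, 1 in knockout cells at 12 h and 2 for the genotype difference at 6 h. Between lines it called 5 at 6 h and 5 at 12 h for the change, and 3 at each time for the genotype difference. Adjusting over all probe sets left 0 in DU145 parent cells at 12 h, 0 and 0 for the genotype difference at 6 h in DU145 and CCRF-CEM, 1 for it at 12 h in CCRF-CEM, 1 for the line change at 6 h and 0 for the line difference of the genotype difference at 12 h. One fit of all arrays gave DU145 counts of 2 in parent cells at 6 h, 0 at 12 h, 1 in knockout cells at 6 h and 0 for the genotype difference at 6 h, and CCRF-CEM counts of 1 in parent cells at 12 h and 1 for the genotype difference at 12 h. A filter on level added IL11 at 6 h in DU145 parent cells (2), a variance trend with robust moderation added IL32, as lower, at 6 h in CCRF-CEM parent cells (2), and a shift to equal housekeeping medians left 1 for the genotype difference at 12 h in CCRF-CEM and 1 for the line change at 6 h. That shift moved the median of all genes by up to 0.357, in the untreated line difference, and by -0.306 in the untreated DU145 genotypes, where LIF then passed as lower. The cause of these moves was not tested.

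With single probe sets, alternatives chosen after seeing the data, the variance trend called 3 members in DU145 parent cells at 12 h, 1 in knockout cells at 12 h and 2 for the genotype difference at 6 h, and in CCRF-CEM 0 in knockout cells at 12 h and 1 for the genotype difference at 6 h. The replicate block left 2 of 4 members in CCRF-CEM parent cells at 12 h and moved no other count by over 1.5 times. In each line 0 of 45 same-numbered pairs correlated over 0.1. Of 18 arrays, 2 in DU145 and 13 in CCRF-CEM correlated best with their own number. At the 99th percentile of background 4 members, not 7, were above it in DU145.

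Leaving out each array in turn gave 1 to 3 members in DU145 parent cells at 6 h, 0 to 1 at 12 h, 2 in the untreated genotypes and 1 for the genotype difference at 6 h. In CCRF-CEM it gave 1 in parent cells at 6 h, 1 to 3 at 12 h, 0 to 1 and 1 to 2 for the genotype difference at 6 h and 12 h, and 0 to 1 untreated. Between lines it gave 5 untreated, 1 to 2 for the change at either time, and 0 and 1 for the genotype difference. The other contrasts stayed at 0. With single probe sets the ranges were 3 to 4, 0 to 2, 0 to 2, 0 to 1 and 1 to 2 in DU145 (parent 6 h and 12 h, knockout 6 h and 12 h, genotype difference 6 h), 3 untreated, and 2, 2 to 3, 0 to 1, 0 to 1, 0 to 1 and 1 to 2 in CCRF-CEM (the same, with the genotype difference at 12 h last). LIF at 12 h lost its call without treated replicate 1 (adjusted p = 0.0603) or 2 (adjusted p = 0.0676), TNF at 12 h without control replicate 2 (adjusted p = 0.0541), and the IL23A genotype difference at 6 h without any of 4 arrays (adjusted p = 0.0509 to 0.0537). TNF's genotype difference lost its call in 13 settings (adjusted p = 0.0527 to 0.231) and IL32's line difference in 8 (adjusted p = 0.0563 to 0.0842).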
